A study of Mus musculus with 6 samples.

Results

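Short runs of CpG sites that recur with the same spacing at many places in the mouse genome were followed in male germ cells with and without Tex15. A CpG is a C followed by a G, the site at which mammalian DNA is mainly methylated. The runs considered here hold 5 successive CpGs of the deposited table, with 3, 7, 13 and 4 bp between neighbours, read in either direction. All CpGs of the table within 300 bp of such a run were counted with it, and runs within 1 kb of each other were counted as 1 copy. This gave 84 runs, 42 in each direction, in 82 copies with 843 CpGs, of 8610279 CpGs in the table. The spacing had been chosen with its low methylation in Tex15KO germ cells known, so the Tex15KO values of the copies are given as a description with no test.

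The 3 groups were Tex15KO (Tex15-/-, pups 3 and 16), Tex15HT (Tex15+/-, pups 7 and 18) and Tex15WT (Tex15+/+, pups 8 and 9), each of n = 2 individual pups. All were male, at postnatal day 2.5, from crosses of Tex15+/- parents on a mixed strain background. Their germ cells carried an Oct4-GFP reporter and were sorted by its fluorescence, and the nature of the Tex15 allele is not given in the sources used here. Methylation was read by whole-genome bisulfite sequencing, in which bisulfite turns unmethylated C into a base read as T while methylated C stays C. The methylation level below is the share of calls (single reads of a site) that were C, in percent. No RNA was measured, so the sorted cell type could not be checked against marker genes.

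In fetal male germ cells the genome loses most of its DNA methylation and gains it again by about the time of birth. Retrotransposons, mobile repeats present in many copies, are methylated in that interval, and at young copies this depends on the piRNA pathway, in which small RNAs bound to nuclear PIWI proteins direct the methylation machinery to transposon sequence. TEX15 is needed in mouse male germ cells for this step and binds the PIWI protein MIWI2. The spacing 3-7-13-4 is a property of CpG positions and does not by itself name a repeat family, and no repeat annotation was used here.

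The letters below show what the spacing fixes: the capitals C and G are the 5 CpGs, and N is any base. The first line is the run as read from the 3 bp step, and the second the same run read on the other strand. They show that 10 of 29 bases are set. The rest are free except that they hold no further CpG of the table, since the 5 CpGs of a run are successive.
run 3-7-13-4: CGNCGNNNNNCGNNNNNNNNNNNCGNNCG
run 4-13-7-3: CGNNCGNNNNNNNNNNNCGNNNNNCGNCG

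Among 32851 promoter windows of RefSeq mouse genes, each from 250 bases before to 50 bases after the gene's start, 8 (0.0244%) held either form. These 8 windows held 16 to 42 CpGs, against a median of 7 over all windows. The promoter of Evx2, a homeobox gene next to the HoxD cluster, is shown because its CpG spacing can be matched to 1 of the copies beyond the run itself. All 13 CpGs of the table in that stretch of the copy at chromosome 2, 74497701 to 74497729 (mm9), lay at the distances found in the Evx2 sequence. The other 7 promoters shared at most 6 CpG positions with a copy on their chromosome. In the RefSeq sequence of chr2:74659508-74659807 (GRCm38.p6, minus strand, 5′ to 3′) the 5 CpGs of the run are in capitals.
Evx2 promoter: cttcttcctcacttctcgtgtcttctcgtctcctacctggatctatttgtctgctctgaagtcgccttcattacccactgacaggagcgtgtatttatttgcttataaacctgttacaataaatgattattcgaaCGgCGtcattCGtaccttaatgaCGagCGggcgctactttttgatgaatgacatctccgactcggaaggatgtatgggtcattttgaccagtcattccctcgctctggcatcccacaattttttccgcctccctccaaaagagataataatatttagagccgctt

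The copies were spread over 20 chromosomes, with 10 on chromosome 2, 9 on chromosome 6 and 8 on chromosome 4. None lay on the Y chromosome and 4 lay on the X chromosome. Of the 82 copies, 80 held 1 run and 2 held 2 runs. A median of 8 CpGs of the table lay in the window of a copy, with 5 in the poorest and 51 in the richest. The table holds 5867 spacings of this kind at 10 or more places, with a median of 16 places, and 3-7-13-4 ranked 116th by number of places. Only 197 of these spacings (3.36%) had a level of 50% or more in the 4 control pups together, and among those 3-7-13-4 ranked 8th.

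Depth differed between the libraries. The table held 27495658 to 52935635 calls per pup over 10025464 cytosines. Tex15KO 3 had 0 calls at 74.4% of the cytosines, against 1.71% to 10.2% in the other 5 pups, and its calls were concentrated at a median of 8 per covered cytosine. At the CpGs of the copies, 37.4% had 0 calls in Tex15KO 3, and 0.119% to 6.88% had 0 calls in the other pups. Results on the copies are therefore given for Tex15KO 3 and Tex15KO 16 apart. The level over the whole table was 68.4% and 65.7% in the Tex15KO pups, 64.3% and 64.2% in the Tex15HT pups and 65.3% and 64.3% in the Tex15WT pups.

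At the CpGs of the 82 copies, most DNA was unmethylated in Tex15KO germ cells and most was methylated in both control genotypes. The level was 10.7% in Tex15KO 3 (95% Wilson interval 9.80 to 11.7, 4128 calls) and 11.2% in Tex15KO 16 (10.4 to 12.05, 5419 calls). It was 64.6% in Tex15HT 7 and 61.9% in Tex15HT 18, and 68.2% in Tex15WT 8 and 66.7% in Tex15WT 9, on 2940 to 3593 calls each. Both Tex15KO pups lay far below all 4 controls, and they lay within each other's interval. The group levels were 10.9% ± 0.336 in Tex15KO, 63.2% ± 1.86 in Tex15HT and 67.5% ± 1.10 in Tex15WT (SD, n = 2 each). Tex15KO minus Tex15WT was -56.5 points, and Tex15KO minus Tex15HT was -52.3 points. Intervals cover counting error only, since reads copied by PCR cannot be told from reads of separate molecules.

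Most copies were methylated in the controls, and a minority were not. With the calls of the 4 control pups pooled, 72 copies (615 CpGs) had a level of 50% or more and 10 copies (228 CpGs) a lower one. In the 72 methylated copies the level was 14.0% and 13.8% in the Tex15KO pups, 81.4% and 80.9% in the Tex15HT pups and 82.9% and 83.5% in the Tex15WT pups. Over these copies Tex15KO minus Tex15WT was -69.3 points. The Tex15KO level at these copies did not reach that of the other 10 copies, which was 1.22% and 1.09% in the Tex15KO pups. Pooled over those 10 copies the controls were low as well, at 2.46% and 1.86% in the Tex15HT pups and 3.14% and 4.61% in the Tex15WT pups. Most of these calls came from 6 copies under 10%, while the other 4 had pooled control levels of 12.03% to 34%. The class was set from the control values, those of Tex15WT included. The gap between the classes in the controls is therefore a description. So is the larger Tex15KO minus Tex15WT difference over the 72 copies, since copies high in the controls were picked for it. The same limit applies wherever the 72 methylated copies are used below.

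The classes also differed in CpG content. Of the 10 copies under 50%, 6 were under 10% in the controls, and these had 15 to 51 CpGs in their window, with a median of 32.5. The other 4 lay between 10% and 50% and had 6 to 11 CpGs. The 72 methylated copies had 5 to 20 CpGs, with a median of 8, and 67 of them had fewer than 15. The 6 under 10% thus lay at the dense end of the range and the 72 at the sparse end, with an overlap between 15 and 20 CpGs.

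**Figure D1:**
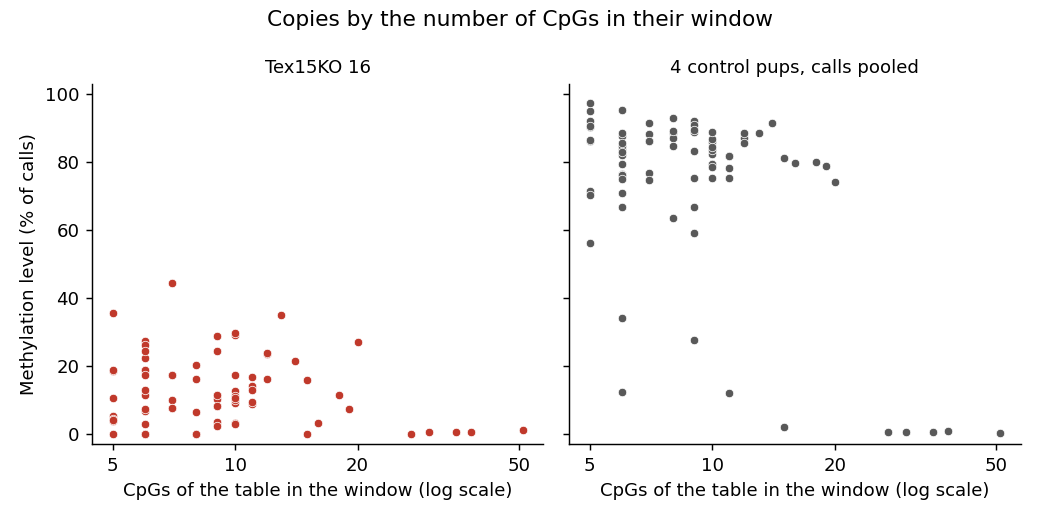
Level of each copy with at least 10 calls (vertical axis, percent of calls read as C) against the number of CpGs in its window (horizontal axis, log scale), in Tex15KO 16 on the left and in the 4 control pups pooled on the right. The 6 copies under 10% in the controls have 15 to 51 CpGs, and every copy lies under 50% in Tex15KO 16.

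**Figure D2:**
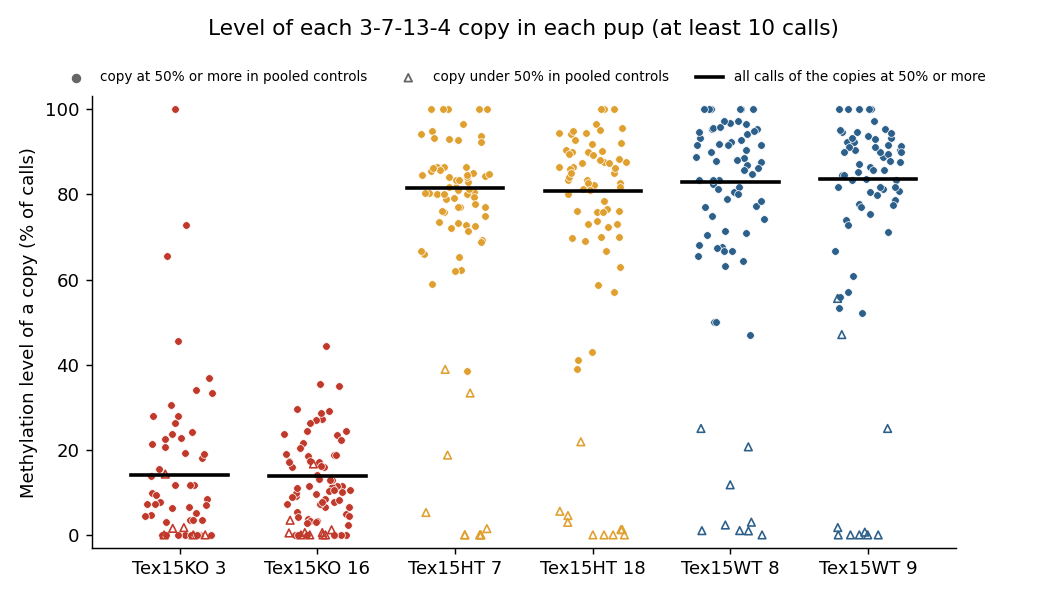
Level of each copy with at least 10 calls in each pup (percent of calls read as C). Circles are copies at 50% or more in the pooled controls, triangles are the copies under 50%, and black bars give the level of all calls of the copies at 50% or more, which is 14.0% and 13.8% in the Tex15KO pups and 80.9% to 83.5% in the 4 controls.

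The low level in Tex15KO was shared by nearly every copy that could be read. In Tex15KO 16 all 80 copies with at least 10 calls were under 50%, and 39 of them were under 10%. In Tex15KO 3, 55 of 58 copies were under 50% and 32 were under 10%. These counts include copies that were low in the controls as well. Among the 72 methylated copies, Tex15KO 16 had 70 of 70 under 50% and 30 under 10%, and Tex15KO 3 had 49 of 52 and 27. Of all copies with at least 10 calls, 11 of 76 and 13 of 73 were under 50% in Tex15HT 7 and 18. In Tex15WT 8 and 9 these were 10 of 72 and 9 of 71. Over copies with at least 10 calls the median level of a copy was 8.07% in Tex15KO 3, with a highest copy of 100%, and 10.1% in Tex15KO 16, with a highest copy of 44.4%. It was 80.0% and 82.1% in the Tex15HT pups and 83.3% and 84.6% in the Tex15WT pups. In Tex15KO 3, 14 copies had 0 calls, and those copies are described by Tex15KO 16 only.

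Of the 44 copies with at least 10 calls in each of the 6 pups, 35 (79.5%) had both Tex15KO pups more than 30 points below all 4 controls. The same held for 0.456% of the 330110 tested 1 kb tiles of the genome, which hold 3 or more CpGs and 10 or more calls in every pup, and for 0.544% of the 274098 tiles at 50% or more in the controls. Since the spacing was chosen on this contrast, nothing is read from the gap between these shares. No copy had both Tex15KO pups more than 30 points above all controls, against 0.0194% of the tiles. Among the methylated copies the count was 35 of 38. Without Tex15KO 3, whose depth limits the number of copies, 48 of 57 copies had Tex15KO 16 more than 30 points below all controls, against 0.632% of 563288 tiles. With at least 20 calls required in each pup, 17 of 21 copies had both Tex15KO pups below by that margin.

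The most deeply read methylated copy lay at chromosome 4, 88022228 to 88022256 (mm9, as are all copy positions here, given from the first to the last CpG of the run). Its level was 13.9% and 13.04% in Tex15KO 3 and 16, on 303 and 322 calls. It was 83.4% and 82.7% in Tex15HT 7 and 18 and 80.0% and 79.9% in Tex15WT 8 and 9. Pups of the same group differed by less than 1 point there, and the Tex15KO and control values did not overlap. The copy at chromosome 7, 77338675 to 77338703, had 11.6% and 10.5% in the Tex15KO pups, 84.0% and 88.3% in the Tex15HT pups and 85.7% and 91.1% in the Tex15WT pups. The copy at chromosome 12, 96823787 to 96823815, had 9.74% and 11.5% in the Tex15KO pups, 86.4% and 68.9% in the Tex15HT pups and 77.3% and 83.7% in the Tex15WT pups. All 3 copies kept 9.74% to 13.9% of their calls as C in both Tex15KO pups, and the Tex15HT pups of the chromosome 12 copy were further apart than the pups of any other pair named in this paragraph.

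Copies with the most remaining methylation in Tex15KO were uneven between the pups. At chromosome 2, 82756397 to 82756425, the level was 65.6% in Tex15KO 3 and 29.2% in Tex15KO 16, on 32 and 24 calls, against 100% and 81.8% in the Tex15HT pups and 87.5% and 77.4% in the Tex15WT pups. At chromosome 16, 19348222 to 19349098, it was 72.7% in Tex15KO 3, on 11 calls, and 21.6% in Tex15KO 16, on 51 calls, against 85.4% and 96.4% in the Tex15HT pups and 95.5% and 90.3% in the Tex15WT pups. In both copies Tex15KO 3 was high and Tex15KO 16 low, and all Tex15KO values lay under all control values. The next 2 were less split: chromosome 4, 18534017 to 18534045, had 30.6% and 23.7% in the Tex15KO pups, against 72.5% and 87.3% in the Tex15HT pups and 97.2% and 85.7% in the Tex15WT pups. At chromosome 4, 109776811 to 109776839, the Tex15KO pups had 36.8% and 17.4%, against 68.8% and 89.5% in the Tex15HT pups and 71.4% and 100% in the Tex15WT pups.

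The third copy over 50% in Tex15KO 3, chosen after its values were seen, lay at chromosome 13, 72530260 to 72530288. All 16 calls of Tex15KO 3 were C there, a level of 100%, and Tex15KO 16 had 44.4% on 36 calls. The Tex15HT pups had 85.7% and 84.0%, and the Tex15WT pups 100%, on 7 calls, and 97.2%. It was thus methylated in Tex15KO 3 like in the controls, with an intermediate level in Tex15KO 16. Across the 50 methylated copies read at 10 or more calls in both Tex15KO pups, their levels had a Pearson r of 0.447 and a Spearman rho of 0.292. The copies share the 2 libraries and their depths, so this is a description. Across 48 copies Tex15KO 16 and the mean of the controls had an r of 0.161 and a rho of 0.0923.

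Among the 44 copies with at least 10 calls in each pup, the 3 lowest in the controls were also among the 4 lowest in Tex15KO, and each was under 2% in every pup. At chromosome 4, 132595368 to 132595396, with 51 CpGs in the window, the level was 1.72% and 1.20% in the Tex15KO pups, 0% and 0% in the Tex15HT pups and 1.01% and 0% in the Tex15WT pups, on 99 to 524 calls. At chromosome 12, 103213825 to 103213853, with 30 CpGs, no pup exceeded 1.27%. At chromosome 5, 120885682 to 120885710, with 35 CpGs, no pup exceeded 1.54%. At the chromosome 4 copy both Tex15KO pups lay above all 4 controls, by less than 2 points, and at the chromosome 12 and 5 copies the Tex15KO pups overlapped the controls. The lowest of these 44 in Tex15KO is the copy matched to the Evx2 promoter, at chromosome 2, 74497701, with 15 CpGs in the window. Its level was 0% in both Tex15KO pups, on 101 and 89 calls, 0% and 4.55% in the Tex15HT pups and 2.33% and 0% in the Tex15WT pups, so that it was low in all 3 genotypes. The other 2 copies under 10% in the controls had 0 calls in Tex15KO 3 and at most 2.99% in any other pup.

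**Figure D3:**
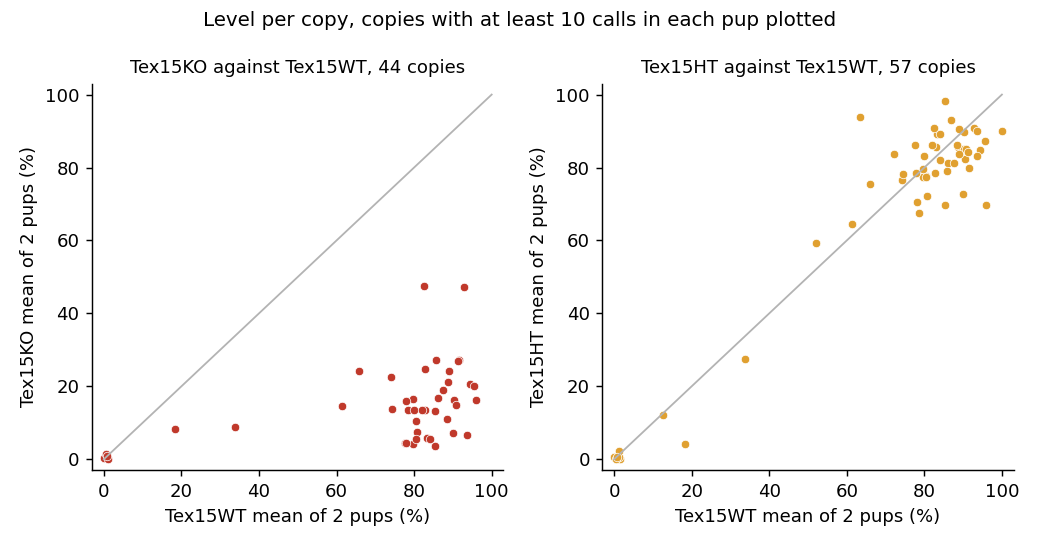
Mean level of each copy with at least 10 calls in each plotted pup (percent of calls read as C), Tex15KO against Tex15WT for 44 copies on the left and Tex15HT against Tex15WT for 57 copies on the right; the grey line marks equal levels. Most copies lie far below the line on the left, while on the right they scatter about it, and the copies at the lower left corner are those unmethylated in every pup.

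The copies shared more of their CpG layout than the 5 positions of the run. Outside the run, 3 positions were held by 20 or more of the 84 runs, counted from the first CpG of the run in its own direction. A CpG lay 37 bp before it, at position -37, in 27 runs, 48 bp after it in 34 runs and 60 bp after it in 21 runs. No other position within 1 kb was held by more than 12 runs. At least 1 of the 3 was present in 45 of the 72 methylated copies (62.5%), in all 4 copies between 10% and 50%, and in 3 of the 6 copies under 10%. The spacing 7-13-4-21, which is the run extended to the CpG at 48 bp, lay within 300 bp of 32 copies (39.0%), and these made up 82.1% of its 39 places in the table. The spacing 13-7-3-37, extended to the CpG before the run, lay at 23 copies (28.0%). None of the 82 copies had a run of the spacing 4-5-7-7, of which the table holds 112, within 8 kb.

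A second regularity lay at 212 bp. The 5 positions of each run were shifted along the sequence by 100 bp or more, to either side, and matches to a CpG were counted. There were 39 matches at a shift of 212 bp, in 10 copies with 2 or more, and 19 at 848 bp, in 3 copies with 2 or more. The next shift, 105 bp, gave 16 matches. The 2 copies that hold 2 runs have them at these distances in the same direction. Each of their runs meets the 5 CpGs of the other, so these copies are themselves part of the 39 and the 19. The match counts are therefore not counts of distinct CpGs, and the distances in these 2 copies are no separate support. The run starts are 212 bp apart in the copy at chromosome 3, 132491726 to 132491966, and 848 bp apart in the copy at chromosome 16, 19348222 to 19349098. The level of the chromosome 3 copy was 0% in Tex15KO 3, on 16 calls, and 27% in Tex15KO 16, on 100 calls. It was 76.2% and 58.6% in the Tex15HT pups and 81.7% and 75.4% in the Tex15WT pups, so both Tex15KO pups lay below every control.

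Within the run, the second CpG was the least methylated in every pup. At this position, 3 bp after the first CpG, the level was 7.30% and 7.32% in the Tex15KO pups, 69.8% and 66.5% in the Tex15HT pups and 71.3% and 69.2% in the Tex15WT pups. At the third CpG, 10 bp after the first, it was 13% and 14.9% in the Tex15KO pups, 83.2% and 79.9% in the Tex15HT pups and 85.5% and 85.7% in the Tex15WT pups. The order of these 2 positions was thus the same in all 6 pups, and the third CpG was the highest of the run in the 4 controls and in Tex15KO 16. The shared positions outside the run had similar levels: the CpG at -37 bp had 9.05% and 12.3% in the Tex15KO pups, 78.3% and 81.4% in the Tex15HT pups and 79.3% and 77.5% in the Tex15WT pups. Tex15KO was low and both control genotypes were high at each of the 8 positions.

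**Figure D4:**
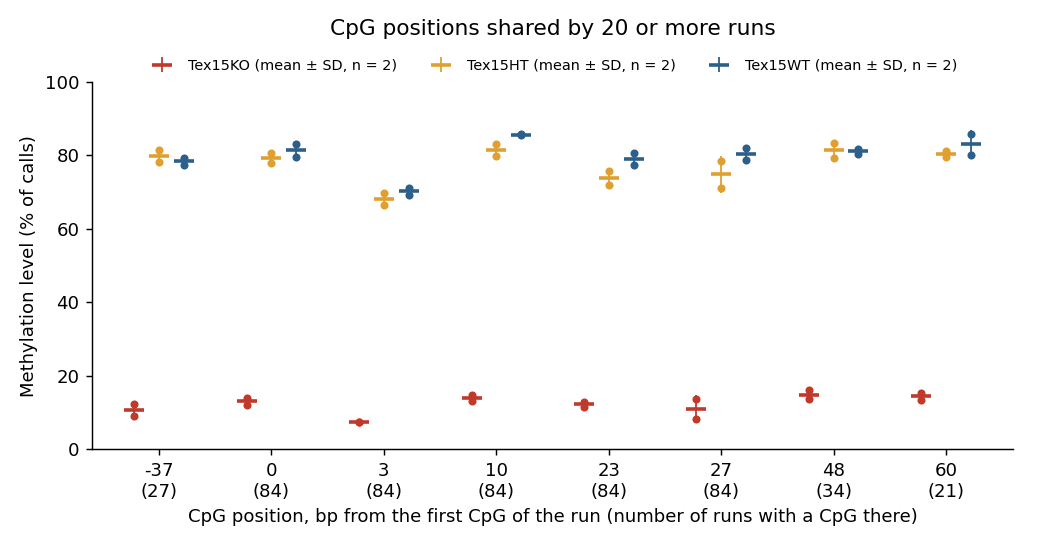
Level (percent of calls read as C) at the CpG positions shared by 20 or more runs, in bp from the first CpG of the run, with the number of runs that hold a CpG there in brackets. Points are pups, horizontal bars group means and vertical bars the SD (n = 2); the position 3 bp after the first CpG is the lowest of the 5 run positions in all 6 pups.

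Runs just outside the spacing were mostly unmethylated in all genotypes. There were 160 runs in which exactly 1 of the 4 distances differed by 1 or 2 bp, and 144 of them were under 10% in the pooled controls. Of the 84 runs with the exact spacing 74 were at 50% or more, against 6 of these 160. A low level was also usual among recurring spacings, of which 3.36% were at 50% or more, counted per spacing and not per run. Whether the changed distance mattered for the level was not tested. The level over the 160 runs was 3.60% and 3.83% in the Tex15KO pups, 3.91% and 7.01% in the Tex15HT pups and 5.99% and 6.42% in the Tex15WT pups. The 6 at 50% or more had 0% and 66.7% in the Tex15KO pups, on 40 and 153 calls, 61.1% and 88.0% in the Tex15HT pups and 89.4% and 89.5% in the Tex15WT pups. In Tex15KO 3, 83.3% of their 30 CpGs had 0 calls, against 0% in Tex15KO 16, so the 2 Tex15KO values do not cover the same sites. CpGs over 300 and up to 400 bp from the run, just outside the window, numbered 71. They had 4.84% and 5.72% in the Tex15KO pups, on 62 and 297 calls. The Tex15HT pups had 36.7% and 31.8% there, and the Tex15WT pups 28.9% and 37.9%. Tex15KO 3 had 0 calls at 83.1% of these CpGs. These levels pool the 2 classes of copies. Over 300 and up to 500 bp around the 72 methylated copies, the Tex15HT pups had 84.2% and 77.0% and the Tex15WT pups 78.7% and 89.3%. Around the copies under 50% no control pup exceeded 0.957% in that bin. Those copies supplied 258 of the 423 calls of Tex15HT 7 there. The 160 runs and the 71 CpGs lie just outside the limits that defined the copies, and their values were given no test.

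The low level in Tex15KO reached past the window, to 1000 bp. At 1001 to 2000 bp Tex15KO was mostly methylated but still below the controls, and beyond that it overlapped them. Around the 72 methylated copies the level inside the run averaged 12.6% ± 0.695 in Tex15KO, 82.9% ± 1.12 in Tex15HT and 85.0% ± 0.594 in Tex15WT (SD, n = 2 each). Tex15KO minus Tex15WT was -72.4 points inside the run, -66.0 at 1 to 100 bp, -57.9 at 101 to 300 bp and -71.8 over 300 and up to 500 bp, so the difference did not shrink steadily. The last of these bins rests on 21 copies, with 6.86% and 17.6% in the Tex15KO pups. At 501 to 1000 bp the level was 26.6% and 37.6% in the Tex15KO pups, 73.7% and 77.2% in the Tex15HT pups and 79.8% and 74.5% in the Tex15WT pups, with a Tex15KO minus Tex15WT difference of -45.1 points. At 1001 to 2000 bp it was 65.6% and 73.8% in the Tex15KO pups, 86.1% and 84.5% in the Tex15HT pups and 85.0% and 83.5% in the Tex15WT pups. Both Tex15KO pups still lay below all 4 controls at that distance, while the Tex15HT and Tex15WT pups overlapped. At 2001 to 4000 bp the means were 84.7% in Tex15KO, 85.1% in Tex15HT and 82.2% in Tex15WT, and at 4001 to 8000 bp they were 80.1% in Tex15KO, 81.8% in Tex15HT and 79.4% in Tex15WT, with overlap of the pups at both distances.

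The 2 flanks were not alike. On the side before the 3 bp step, Tex15KO at 1001 to 2000 bp had 84.8% and 90.4%, against 93.8% and 91.0% in the Tex15HT pups and 89.5% and 91.9% in the Tex15WT pups, a Tex15KO minus Tex15WT difference of -3.03 points over 12 copies with CpGs there. On the side after the 4 bp step it had 55.9% and 69.4%, against 83.2% and 82.9% in the Tex15HT pups and 83.6% and 80.4% in the Tex15WT pups, a difference of -19.3 points over 54 copies. The Tex15KO pups lay below all controls after the run, while before it 1 of them lay inside the range of the controls. The sides also differ in how many copies have CpGs there, and the difference between the sides was not tested.

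**Figure D5:**
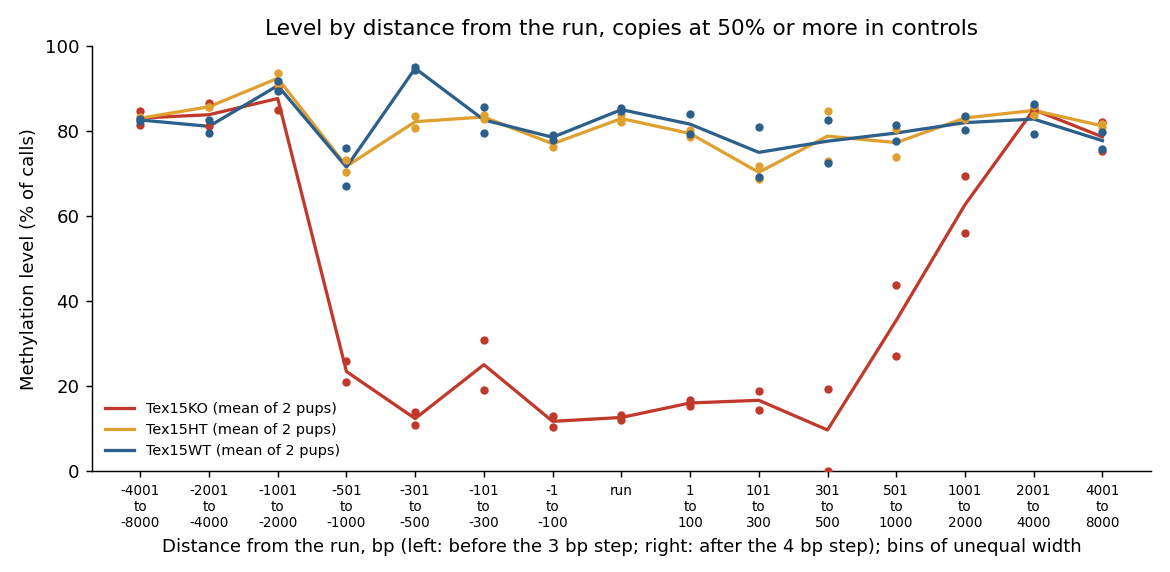
Level (percent of calls read as C) by distance from the run around the 72 copies at 50% or more in the controls, with the side before the 3 bp step on the left and the side after the 4 bp step on the right, in bins of unequal width. Lines are group means and points are pups; Tex15KO lies far below both control genotypes from the run out to 501 to 1000 bp, is 19.3 points below Tex15WT at 1001 to 2000 bp on the right, and overlaps the controls beyond 2001 bp.

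Tex15HT against Tex15WT asks whether 1 intact Tex15 allele left the copies methylated as in the wild type, and is the contrast that the choice of the spacing did not use, although it shares the Tex15WT pups with it. Tex15HT minus Tex15WT was -4.21 points over all copies, with 63.2% ± 1.86 in Tex15HT and 67.5% ± 1.10 in Tex15WT (SD, n = 2 each). A two-sided exact permutation test gave p = 0.333, the smallest that 2 pups against 2 allow. Over the 72 methylated copies the difference was -2.10 points, and over the copies under 50% in the controls it was -1.71 points. The -4.21 points thus exceed the difference within either class, and also depend on how calls were split between the classes. Copies under 50% supplied 731 of 3425 and 861 of 3593 calls in Tex15HT 7 and 18. They supplied 542 of 2940 and 672 of 3148 calls in Tex15WT 8 and 9. How much of the -4.21 points came from this split was not tested. Both Tex15HT pups lay below both Tex15WT pups over all copies and over the 72 methylated copies. The margin was far smaller than the distance to Tex15KO in both of these sets.

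The spacing as a whole was tested among 5852 recurring spacings with edgeR's quasi-likelihood test on methylated and unmethylated counts. Its log2 odds ratio, Tex15HT over Tex15WT, was -0.30, with an edgeR Benjamini-Hochberg adjusted p of 1 (unadjusted 0.531). No spacing was called at an adjusted p under 0.05 (0% of those tested) by edgeR or by limma, while 28 were lower and 19 higher in Tex15HT at an unadjusted p under 0.05 with edgeR. Of the 84 tiles of 1 kb that hold a run, 45 could be tested, and 0 were called by either tool, against 4 of 330110 tiles (0.00121%) with edgeR. None of the 45 had an unadjusted p under 0.05, and the fitted odds ratio was below 1 in 26 and above 1 in 19, a split that turned to 19 and 26 without Tex15WT 9. The median difference in level was -0.800 points over the 45 tiles, against 0.909 points over all tiles tested. On simulated data these designs called 3 of 200 spacings changed by a log2 odds of 3, and 0 of 200 tiles. The spread between pups was set by hand there and not estimated from these pups, and 30000 tiles were drawn. Under that setting a change of that size was mostly missed, so it may also be missed here. The tile fit used 1 common spread for all tiles, so a single tile's p takes no account of how unlike its own pups were.

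Copy by copy, both Tex15HT pups lay below both Tex15WT pups in 9 of 44 copies, against 11.8% of all tiles, and above both in 2 of 44, against 18% of all tiles. Among these 44 copies the largest differences were at chromosome 15, 65889026 to 65889054, and at chromosome 3, 137263628 to 137263656. The chromosome 15 copy had 69.2% and 70.0% in the Tex15HT pups and 91.7% and 100% in the Tex15WT pups, on 52, 30, 12 and 18 calls, a difference of -26.2 points. The chromosome 3 copy had 78.9% and 66.7% in the Tex15HT pups and 84.9% and 95.2% in the Tex15WT pups, a difference of -17.3 points. In both copies the pups of the 2 genotypes did not overlap, and both copies were lower still in the Tex15KO pups, at 22.7% and 10.0% for chromosome 15 and 7.14% and 7.35% for chromosome 3. Among the 57 copies with at least 10 calls in each of the 4 control pups, a larger difference in the other direction was found at chromosome 6, 69902315 to 69902343, a copy named after its values were seen. It had 92.3% and 95.2% in the Tex15HT pups and 50% and 76.9% in the Tex15WT pups, on 13, 21, 28 and 13 calls, so the pups did not overlap there either. In Tex15KO 16 it had 17.2%, and Tex15KO 3 had 0 calls.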

How the data were processed

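The authors deposited 1 table for all 6 pups that gives, per the file headers, raw counts at each cytosine of a CpG: coverage, calls read as C and calls read as T. Per the labels' protocols, about 10 ng of DNA per pup was bisulfite-treated after a lambda DNA spike of 0.5%, and made into Ovation Ultralow Methyl-Seq libraries, which series notes give as paired reads of 75 nt. The submitters' processing notes name build mm9 and the tools methylKit, BSMAP and Bismark; the role of each, duplicate removal and the conversion rate were not given in the sources used here. The coverage column was the sum of both kinds of call at every cytosine (0 exceptions), and calls summed to at least 3 over the pups of each genotype.

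Strands were merged and calls summed over CpGs, runs, copies or 1 kb tiles (Python 3.11.15, pandas 2.3.3). The copies, lists and thresholds were chosen with earlier results of these data known. Copies named are, by a rule that leaves out chromosome 18, the 6 with most calls, and among those with at least 10 calls in each pup the 4 highest and 4 lowest in Tex15KO, the 3 lowest in the controls, up to 3 with several runs, and the 2 with the largest difference between Tex15HT and Tex15WT. Other spacings are named where they adjoin 30% or more of the copies, and 13-7-3-37, just under that limit, was added after its values were seen.

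Tex15HT was compared with Tex15WT with an exact permutation test and with edgeR 4.0.16 (glmQLFit and glmQLFTest in R 4.3.3, sample intercepts, 1 fit over all 6 pups, Benjamini-Hochberg adjustment over all spacings or tiles), and as an alternative with limma 3.58.1 (log2 of C over T calls, 1 added to each). Both designs were tested on simulated data. Promoter sequences are RefSeq's (GRCm38.p6), matched to copies by CpG spacing and not by coordinates. The sequences of the copies themselves were not used here.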

Additional observations from a re-analysis of the deposited data

How the results depend on the processing

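With 2 pups a group and few calls per CpG, differences between Tex15HT and Tex15WT may be missed, also large ones. On simulated data with a spread between pups set by hand, 3 of 200 spacings and 0 of 200 tiles changed by a log2 odds of 3 were called. Of the 82 copies, 38 lacked 10 calls in at least 1 pup. Tex15KO minus Tex15WT (-56.5 points) was -60.9 with copies weighted alike, -67.9 for run CpGs only, -63.1 within 100 bp, -53.2 without the most deeply read 0.1% of cytosines, -58.4 with 3 calls per CpG, and -63.3 for CpGs read in all 6 pups. Tex15KO minus Tex15HT (-52.3) was -57.7, -64.1, -58.5 and -48.2 under the first 4 of these and -61.0 for CpGs read in all 6 pups. In 2 alternatives chosen after seeing the data, the methylated copies gave -69.3 against Tex15WT and -67.2 against Tex15HT, and copies with fewer than 15 CpGs gave -67.8 and -65.4. Leaving out 1 pup at a time gave -57.3 to -55.7 against Tex15WT and -53.6 to -51.0 against Tex15HT. The cause of these shifts was not tested.

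Tex15HT minus Tex15WT stayed between -5.53 and -2.10 in all 14 alternatives, and between -5.53 and -2.90 with 1 pup left out. The log2 odds ratio of the spacing stayed between -0.46 and -0.15 in all 11 alternatives, leaving out 1 pup included, and it was never called. No tile with a run was called in any of 9 alternatives, but without Tex15WT 9 the split of odds ratios turned to 19 below and 26 above 1. The count of 35 copies was 17 with 20 calls required, since fewer copies qualify, 22 with a margin of 50 points, and 35 to 48 with 1 pup left out.

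At 501 to 1000 bp, Tex15KO minus Tex15WT over all copies was -21.1 points, -31.9 with copies weighted alike, -45.1 for the methylated copies, and -26.5 to -15.7 with 1 pup left out. At 4001 to 8000 bp it was -0.509, 3.19 with copies weighted alike, and -2.03 to 1.02 with 1 pup left out. No paired analysis was made, since the sample labels give no litter that would link pups between the groups.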
